A study of Homo sapiens with 10 samples.

Results

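Keratins are the intermediate filament proteins of epithelial cells, and the 8 keratin genes described here (KRT7, KRT8, KRT18, KRT19, KRT80, KRT81, KRT86 and KRT10) were followed across every library of an RNA-seq series on MDA-MB-231 cells. MDA-MB-231 is an established human line of triple-negative breast cancer with a mesenchymal character. The members were taken by symbol, 8 of the 55 keratin genes and of the 36432 symbols in the table. KRT19 entered because its transcript was lower in BACH1 KO than in WT clones in these same libraries, so its difference between the genotypes, and those of its relatives, are given as values with no test.

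The series held 10 libraries from 3 BACH1 KO clones and 2 WT clones, each grown for 40 hours in DMEM with 0 or 4.5 g/liter glucose. BACH1 is a heme-binding transcription factor that represses antioxidant genes such as HMOX1. The KO clones were made by CRISPR in MDA-MB-231 and picked as single-cell clones by Western blot, and the WT (Ctrl) clones carried no knockout. Each group is therefore n = 3 KO or n = 2 WT clones, and the same clone was sequenced at both glucose levels, so every genotype difference rests on 3 clones against 2, each grown from 1 cell. In such bulk samples fewer cells expressing a gene and less RNA per cell cannot be told apart. Levels are TPM, a scale per transcript length and per library, and the depth of the libraries is unknown.

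Keratin filaments are built from pairs of 1 type I and 1 type II protein. KRT8 (type II) and KRT18 (type I) are the first pair made in simple epithelia. KRT7 (type II) and KRT19 (type I) are further simple keratins of ducts and glands, and KRT19 is a common marker of luminal and circulating carcinoma cells. KRT80 (type II) accompanies desmosomes in epithelia, KRT10 (type I) belongs to the suprabasal epidermis, and KRT81 and KRT86 (type II) are hair keratins that breast cancer cells can express. In the GENCODE v44 annotation of GRCh38, 6 of the members stand on chromosome 12 and KRT10 and KRT19 stand on chromosome 17.

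The placement of these genes bears on how their reads can be told apart. KRT80 spans chr12:52168996-52192014, KRT7 chr12:52232520-52252186, KRT81 chr12:52285913-52291534 and KRT86 chr12:52249300-52309163. The KRT86 span encloses all 5622 bases of KRT81 on the opposite strand and overlaps KRT7 over 2887 bases on the same strand. KRT8 spans chr12:52897187-52949954 and overlaps KRT18 (chr12:52948871-52952906) over 1084 bases on the opposite strand. KRT10 lies at chr17:40818117-40822614 and KRT19 at chr17:41523617-41528308, both on the minus strand. Of the 31-base words in the annotated transcripts, 93.6% were unique to KRT19, 98.7% to KRT80, 98.3% to KRT10 and 92.3% to KRT7. KRT8 had 74.2% and KRT18 63.3% unique words, and among the shared ones were words common to the pair (6.59% of the KRT8 and 14.8% of the KRT18 words) and to pseudogenes such as KRT8P3 and KRT18P11. KRT81 had 46.8% and KRT86 51.8%, and KRT86 alone shared 43.2% of the KRT81 words, so the levels of KRT81 and KRT86 are uncertain relative to each other.

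The KRT81 and KRT86 coding sequences are shown because both hair keratins were higher at 0 g/liter in every clone and the assignment of reads between them rests on few bases. They were identical at 1372 of 1457 aligned positions (94.2%). The stretch of 100 coding bases in which they differ most, with 19 differences in capitals, starts at coding position 1227 in both transcripts (chr12:52286447-52287122 on the minus strand for KRT81, chr12:52306260-52308450 on the plus strand for KRT86, introns included, GENCODE v44).
KRT81: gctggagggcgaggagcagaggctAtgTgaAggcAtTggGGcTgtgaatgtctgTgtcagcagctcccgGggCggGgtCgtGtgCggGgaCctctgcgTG
KRT86: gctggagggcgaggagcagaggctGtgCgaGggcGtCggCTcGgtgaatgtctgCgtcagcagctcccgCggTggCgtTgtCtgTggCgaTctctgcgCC
No other 100-base stretch aligned without gaps held more differences.

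**Figure D1:**
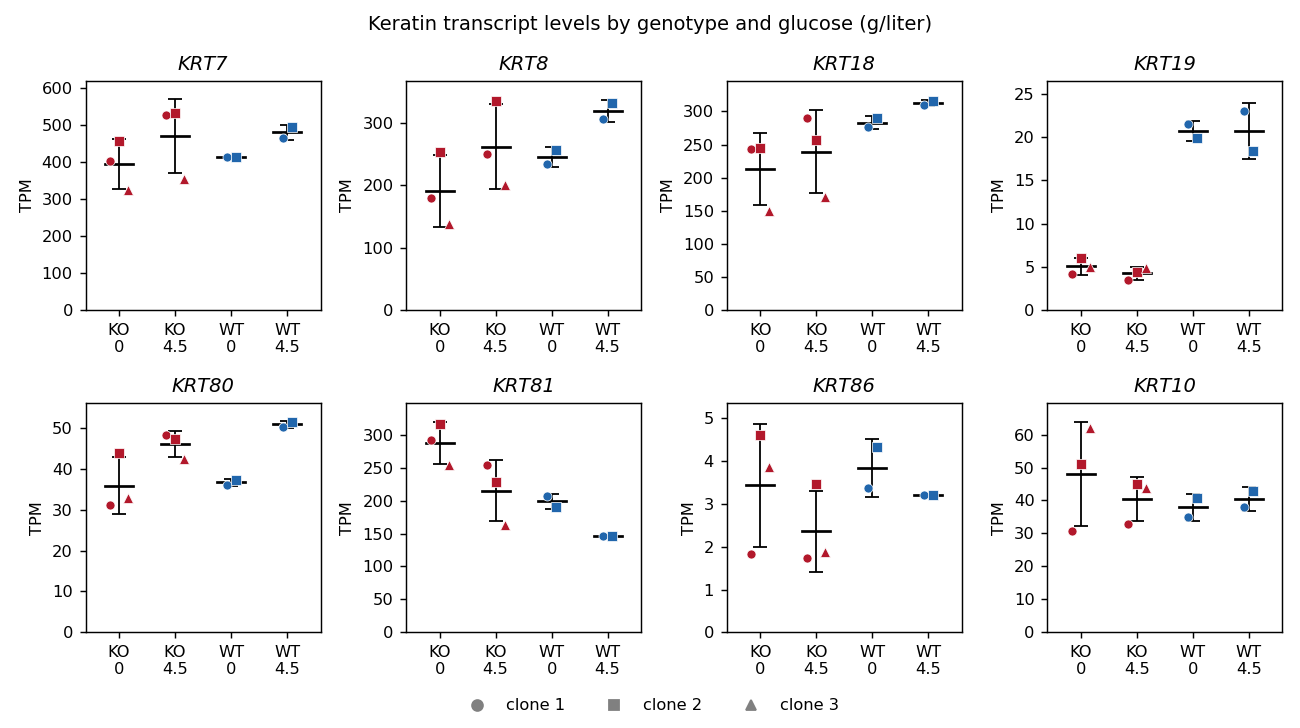
TPM of the 8 keratins (vertical axis) in BACH1 KO and WT clones at 0 and 4.5 g/liter glucose (horizontal axis). Points are libraries, shaped by clone, with the group mean and SD. KRT19 lies at or below 6.06 TPM in all KO libraries and at or above 18.4 TPM in all WT libraries, and KRT81 lies higher in all KO than in all WT libraries of the same glucose level.

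BACH1 transcript was present in the KO clones. At 0 g/liter it had 12.6, 23.9 and 17.2 TPM in KO clones, against 19.7 and 20.6 TPM in WT clones, so that KO clone 2 lay above both WT clones and the transcript did not separate the library labels. At 4.5 g/liter it had 5.18, 2.84 and 3.42 TPM in KO clones, against 8.61 and 8.13 TPM in WT clones. The transcript therefore does not check the knockout, which the study identified by Western blot. HMOX1, the heme-degrading enzyme gene that BACH1 represses, averaged 1723 ± 342 TPM in KO and 550.1 ± 25.8 TPM in WT clones at 0 g/liter, and 379 ± 99.1 TPM in KO and 7.68 ± 1.56 TPM in WT clones at 4.5 g/liter, and its groups did not overlap at either level. The mesenchymal character of the line was visible in VIM (1321 to 2066 TPM), CD44 (754 to 889 TPM) and AXL (443 to 807 TPM). CDH1, ESR1 and PGR stayed below 1 TPM. EPCAM (6.72 to 11.3 TPM) and CLDN4 (19.8 to 114 TPM) were not absent. Fibroblast markers summed to 10.8 to 18.4 TPM, mainly from COL1A1 and PDGFRB, and 4 leukocyte markers (PTPRC, CD3E, CD14 and TYROBP) to 0.348 to 2.29 TPM with TYROBP at 0. Mitochondrial transcripts held 22.4% to 29.7% of TPM.

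The keratin content of the cells was dominated by a few genes. The 8 members held 99.0% to 99.8% of all keratin TPM in every library. They were chosen with earlier results of these data known, so this share describes the list and was not tested. KRT7 led in each of the 4 groups, with means of 394 TPM in KO and 414 TPM in WT clones at 0 g/liter, and 470 TPM in KO and 480 TPM in WT clones at 4.5 g/liter. KRT8, KRT18 and KRT81 followed between 146 and 319 TPM. KRT80 and KRT10 lay between 35.9 and 50.9 TPM, and KRT19 and KRT86 came last. The order of neighbours was not settled everywhere. The clone ranges of KRT8 and KRT18 overlapped in KO clones at both glucose levels and in WT clones at 4.5 g/liter, and KRT81 overlapped KRT18 in KO clones at 4.5 g/liter. KRT80 and KRT10 overlapped in KO clones at both levels and in WT clones at 0 g/liter, and KRT19 overlapped KRT86 in KO clones only.

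KRT19, the short type I keratin, was the one member with a large gap between the genotypes. At 0 g/liter it had 4.13, 6.06 and 5.04 TPM in KO clones 1, 2 and 3, against 21.6 and 19.9 TPM in WT clones 1 and 2. At 4.5 g/liter it had 3.45, 4.43 and 4.91 TPM in KO clones 1, 2 and 3, against 23.0 and 18.4 TPM in WT clones. The groups did not overlap at either glucose level, and the highest KO library (6.06 TPM) stood well under the lowest WT library (18.4 TPM). The log2 fold change, KO over WT on the log2(TPM + 1) scale, was -1.85 (SE 0.18) at 0 g/liter and -2.05 (SE 0.18) at 4.5 g/liter, values that also chose the gene. With a pseudocount of 0.1 in place of 1 the value at 4.5 g/liter was -2.26.

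KRT19 made up 1.87% ± 0.398 of type I keratin TPM in KO and 5.91% ± 0.554 in WT clones at 0 g/liter, and 1.56% ± 0.583 in KO and 5.49% ± 0.944 in WT clones at 4.5 g/liter. Most type I TPM came from KRT18. KRT18 had 243, 245 and 150 TPM in KO clones at 0 g/liter, against 276 and 290 TPM in WT clones. At 4.5 g/liter the KRT18 values were 291, 257 and 170 TPM in KO clones and 309 and 316 TPM in WT clones, so no KO library reached the lowest WT library at either level. Its log2 fold changes, KO over WT, were -0.45 at 0 and -0.42 at 4.5 g/liter. KRT8 had log2 fold changes of -0.40 and -0.31 at these levels, but KO clone 2 lay between the WT clones at 0 g/liter (253 TPM, against 233 and 256 TPM in WT clones) and above them at 4.5 g/liter (335 TPM, against 307 and 331 TPM in WT clones). KO clone 3 was the lowest library of its group for KRT7, KRT8 and KRT18 at both glucose levels.

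KRT81 ran the other way. It had 292, 317 and 254 TPM in KO clones at 0 g/liter, against 207 and 191 TPM in WT clones, and 254, 228 and 163 TPM in KO clones at 4.5 g/liter, against 146 and 146 TPM in WT clones. All KO libraries were above both WT libraries at each glucose level, with a log2 fold change of 0.52 at 0 and 0.53 at 4.5 g/liter. KRT7, KRT86 and KRT10 overlapped between the genotypes at both levels. KRT80 was below both WT clones in all KO clones at 4.5 g/liter only (48.4, 47.3 and 42.5 TPM in KO clones, against 50.3 and 51.5 TPM in WT clones).

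The genotype counts can be set beside those of all tested genes. At 0 g/liter 1 member was higher in all KO than in all WT clones (KRT81) and 2 were lower (KRT18 and KRT19), while 5.69% of the 13418 tested genes were higher and 7.98% lower. At 4.5 g/liter 1 was higher (KRT81) and 3 were lower (KRT18, KRT19 and KRT80), beside 6.3% higher and 14.6% lower. Since KRT19 was picked on this contrast, nothing is read from these counts.

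The genes around KRT19 were compared in the same way. Of the 17 tested genes whose start lies within 500 kb of that of KRT19, 5 (KRT16, KRT33B, KRTAP2-4, KRTAP4-6 and KRTAP4-12) passed the filter through their 0 g/liter libraries only, were at 0.347 TPM or less in every library at 4.5 g/liter and are left out here. The log2 fold changes of the other 12, KO over WT, lay between -0.44 and 0.39 at 0 g/liter and between -0.11 and 0.44 at 4.5 g/liter. The nearest, KRT15 (a type I keratin of basal epithelia, 5.78 kb away), had 3.67 ± 1.51 TPM in KO and 3.45 ± 0.622 TPM in WT clones at 0 g/liter. EIF1, a translation initiation factor gene 161 kb away, averaged 532 ± 76.9 TPM in KO and 487 ± 4.02 TPM in WT clones at 4.5 g/liter. At 0 g/liter 2 of the 12 (CNP and DNAJC7) were lower in all KO than in all WT clones and none was higher, and at 4.5 g/liter all 12 overlapped, beside the shares of all genes given above.

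**Figure D2:**
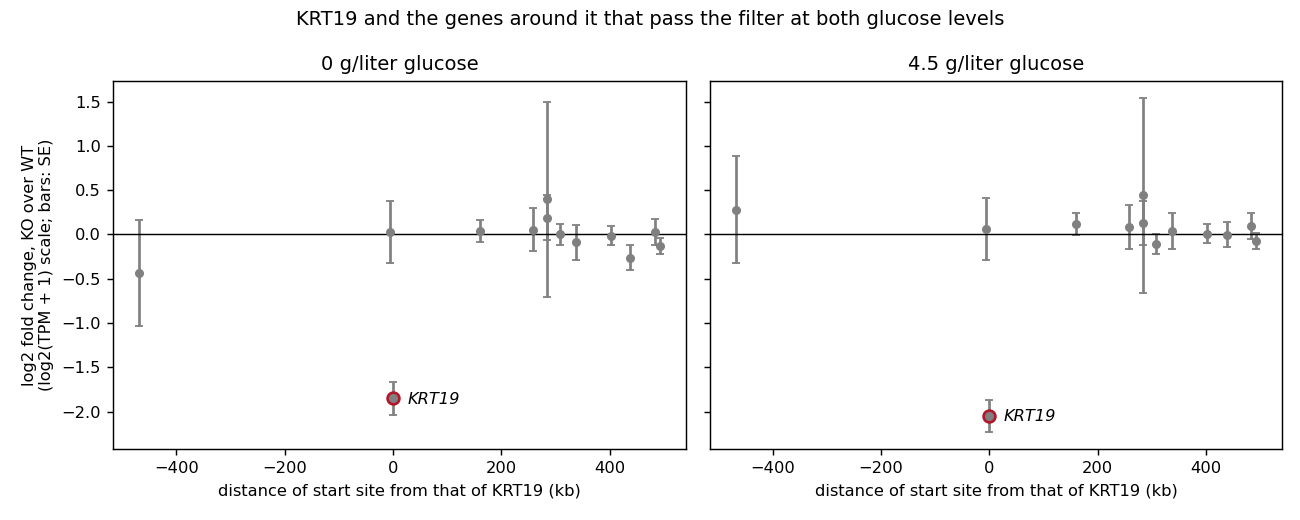
Log2 fold change, KO over WT (vertical axis, with SE), of the genes around KRT19 that passed the filter at both glucose levels against the distance of their start sites from that of KRT19 in kb (horizontal axis), at 0 (left) and 4.5 g/liter glucose (right). KRT19 (red) stands at -1.85 and -2.05, and its 12 neighbours lie between -0.44 and 0.44.

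The genes whose pattern over the 10 libraries came closest to that of KRT19 were found by the root mean square (RMS) difference of centred log2(TPM + 1) among 10002 candidates. GMFG, an actin-regulating factor gene, was closest with a difference of 0.49, followed by PLEKHA7 (0.50), an adherens junction protein, SAA1 (0.51), an acute-phase protein, CST7 (0.54), a cysteine protease inhibitor, and FBLIM1 (0.58), a filamin-binding protein of cell adhesions. The median candidate differed by 1.00, and the own pattern of KRT19 had an RMS of 0.97. At 4.5 g/liter GMFG had 4.20, 3.07 and 3.03 TPM in KO clones and 8.82 and 8.41 TPM in WT clones. CST7 had 3.95, 3.17 and 4.19 TPM in KO clones and 16.9 and 14.1 TPM in WT clones at 4.5 g/liter. At 0 g/liter GMFG averaged 2.17 TPM in KO and 8.05 TPM in WT clones. CST7 averaged 9.22 TPM in KO and 25.1 TPM in WT clones there, above its 4.5 g/liter means of 3.77 and 15.5 TPM. SAA1 differed between the 2 WT clones, with 22.1 and 53.8 TPM at 0 g/liter and 17.5 and 35.5 TPM at 4.5 g/liter. The likeness was measured over the libraries that selected KRT19 and carries no test.

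The members were chosen with earlier results of these data known, so the tests of glucose removal are not free of that choice. The main fit did not pair the libraries of the same clone. In it none of the 8 passed the test in either genotype (limma on log2(TPM + 1), Benjamini-Hochberg adjusted p over 13418 genes, 0.05), with 2 in each genotype at an unadjusted p under 0.05, beside 28.9% of all tested genes called in KO clones and 23.4% in WT clones. The fit given further below, which compares each clone with itself, called members in both genotypes. The absence of calls therefore belongs to the unpaired fit. With median-ratio scaling alone 1 member was called, KRT81 as higher in KO clones (0.60, adjusted p = 0.0285 from limma, beside 12.7% of all genes called higher), and KRT81 missed in WT clones (0.63, 0.0621, beside 10.2%). In the unscaled fit KRT81 was the closest to the threshold among those higher (log2 fold change 0.44, SE 0.16, adjusted p = 0.0622 from limma in KO clones, and 0.44, SE 0.19, adjusted p = 0.122 in WT clones). KRT80 was the closest among those lower, at -0.36 (SE 0.13, adjusted p = 0.0629) in KO clones and -0.46 (SE 0.16, adjusted p = 0.0644) in WT clones. The whole table leaned downward at 0 g/liter, with a median log2 fold change over all tested genes of -0.15 in KO clones and -0.17 in WT clones that median-ratio scaling brought to -0.00359 in KO and 0.000929 in WT clones. Relative to that median, KRT81 stood at 0.59 in KO and 0.61 in WT clones, KRT8 at -0.32 in KO and -0.22 in WT clones, KRT80 at -0.21 in KO and -0.29 in WT clones and KRT18 at -0.02 in KO and 0.02 in WT clones.

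**Figure D3:**
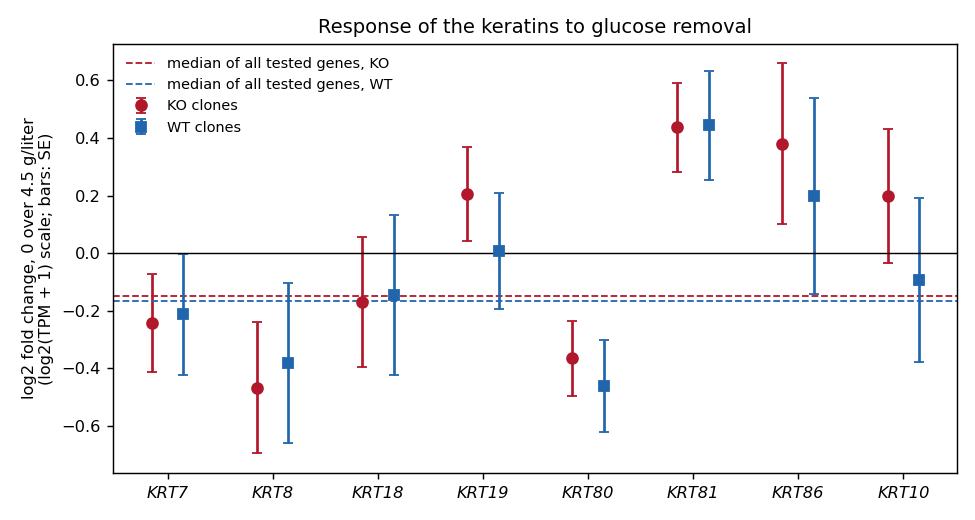
Log2 fold change, 0 over 4.5 g/liter glucose on the log2(TPM + 1) scale (vertical axis, with SE), of each keratin in KO clones (circles, left of each pair) and WT clones (squares). Dashed lines mark the median of all tested genes, -0.15 in KO and -0.17 in WT clones. KRT81 lies at 0.44 in both genotypes, and KRT8 lies at -0.47 in KO and -0.38 in WT clones.

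The same clone was measured at both glucose levels, and a fit that compares each clone with itself called some members. In KO clones KRT81 rose (adjusted p = 0.00522 from limma with clone as a block) and KRT8 (0.000757), KRT7 (0.0203) and KRT80 (0.0219) fell, 1 higher and 3 lower beside 14.6% and 31.9% of all tested genes. In WT clones KRT81 rose (0.0135) and KRT8 (0.00540) and KRT80 (0.0222) fell, beside 12.4% higher and 28.6% lower. Part of the falls depended on the scale. With clone as a block and median-ratio scaling together, an alternative added after the data were seen, KRT81 stayed called in both genotypes (adjusted p = 0.00285 in KO and 0.00709 in WT clones) and KRT8 in KO clones (0.00735), while KRT7 and KRT80 were no longer called, KRT8 missed in WT clones (0.0886), and KRT19 (0.0394) and KRT10 (0.0426) entered as higher in KO clones. In that fit 20.5% of all genes were higher and 17.6% lower in KO clones, and 17.7% higher and 14.2% lower in WT clones. When any 1 clone was left out of the blocked fit, the KO calls of KRT8 and KRT81 remained, with adjusted p up to 0.00597 and 0.0351. The KO call of KRT7 was lost without KO clone 1 or 2 and that of KRT80 without KO clone 1 or 3, and the WT calls of KRT8, KRT80 and KRT81 were lost without either WT clone.

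Clone by clone, the direction was uniform for 6 of the 8. KRT8 at 0 g/liter was 0.720, 0.755 and 0.694 times its 4.5 g/liter level in KO clones 1, 2 and 3, and 0.760 and 0.774 times in WT clones 1 and 2. KRT81 was 1.15, 1.39 and 1.55 times its 4.5 g/liter level in KO clones and 1.42 and 1.30 times in WT clones. KRT7, KRT18 and KRT80 were likewise lower, and KRT86 higher, at 0 g/liter in 5 of 5 clones. Of all tested genes 41.7% were lower and 18.4% higher in all 5 clones. KRT19 was 1.20, 1.37 and 1.03 times its 4.5 g/liter level in KO clones and 0.937 and 1.08 times in WT clones, and KRT10 was higher in some clones and lower in others.

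The response to glucose was compared between KO and WT clones by the interaction of the 2 factors. The interaction called 0 of 8 members (limma, adjusted p over all genes), also 0 at an unadjusted p under 0.05, and 0.00745% of all genes. With clone as a block it called 0 members and 0.0224% of all genes. For KRT19 the log2 change with glucose removal was 0.20 (SE 0.16) in KO and 0.01 (SE 0.20) in WT clones, and the genotype gap at 0 g/liter was -1.85 as given above. The interaction itself was 0.20 (SE 0.26, adjusted p = 1 from limma) for KRT19 on the log2 scale.

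The balance between keratin partners was compared within clones. The ratio of KRT8 to KRT18 TPM was 0.740, 1.03 and 0.928 in KO clones 1, 2 and 3 at 0 g/liter, against 0.861, 1.30 and 1.18 in the same clones at 4.5 g/liter. In WT clones it was 0.845 and 0.883 at 0 g/liter, against 0.992 and 1.05 at 4.5 g/liter. The ratio was lower at 0 g/liter in 5 of 5 clones, with a mean log2 change of -0.27 ± 0.06 (SD, n = 5 clones; exact two-sided sign-flip permutation p = 0.0625, adjusted 0.0938 over 6 such tests). No lower p is possible with 5 clones.

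KRT81 was 31.8% ± 2.14 of type II TPM in KO and 22.1% ± 1.46 in WT clones at 0 g/liter, against 21.6% ± 1.83 in KO and 14.6% ± 0.529 in WT clones at 4.5 g/liter. The share was higher at 0 g/liter in 5 of 5 clones (mean log2 change 0.57 ± 0.08, SD, n = 5, exact sign-flip permutation p = 0.0625, adjusted 0.0938). The KRT19 share of type I TPM was also higher at 0 g/liter in 5 of 5 clones (mean log2 change 0.23 ± 0.21, SD, exact sign-flip permutation p = 0.0625, adjusted 0.0938). KRT18, most of type I TPM, was lower at 0 g/liter in 5 of 5 clones. KRT19 itself was lower in WT clone 1, at 0.937 times its 4.5 g/liter level. The summed keratin TPM was lower at 0 g/liter in 5 of 5 clones with a mean log2 change of -0.12 ± 0.09 (exact permutation p = 0.0625, adjusted 0.0938). Over all tested genes the median was -0.15 in KO and -0.17 in WT clones. The ratio of type II to type I TPM was 3.32 ± 0.129 in KO and 2.56 ± 0.0747 in WT clones at 0 g/liter and 3.45 ± 0.230 in KO and 2.64 ± 0.0629 in WT clones at 4.5 g/liter (SD, n = 3 KO and 2 WT), and it was lower at 0 g/liter in 4 of 5 clones (exact permutation p = 0.125).

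**Figure D4:**
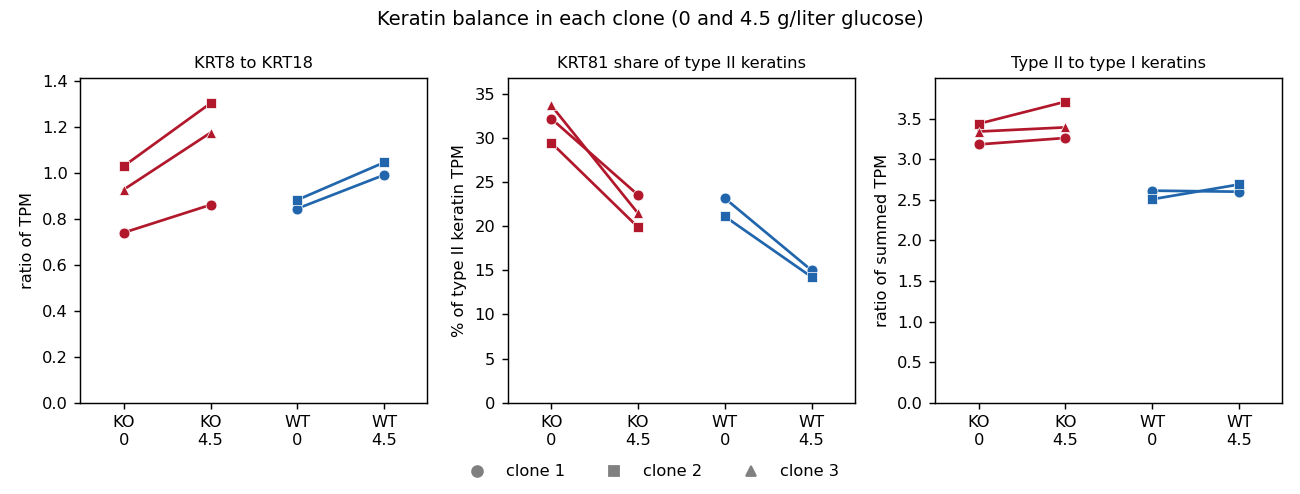
Ratio of KRT8 to KRT18 TPM (left), KRT81 as a percent of type II keratin TPM (middle) and ratio of type II to type I keratin TPM (right) in each clone at 0 and 4.5 g/liter glucose; lines join the libraries of 1 clone. All 5 lines rise toward 4.5 g/liter on the left and fall in the middle, and the type II to type I ratio lies at or above 3.18 in every KO library and below 2.69 in every WT library.

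Outside the 8 members, which were chosen with earlier results of these data known, the keratin family was almost silent. Of the other 47 keratin genes 15 were at 0 in all libraries, 29 were detected without passing the filter (at most 1.37 TPM) and 3 were tested. KRT5, a defining basal keratin, was at 0 throughout. KRT16 and KRT33B passed the filter through their 0 g/liter libraries only, so a higher level there was favoured by the filter, and both are given as values with no test. KRT16, a stress keratin of epidermis, had 1.07, 1.59 and 0.871 TPM in KO clones and 1.27 and 1.37 TPM in WT clones at 0 g/liter, against 0.285, 0.197 and 0.347 TPM in KO clones and 0.0676 and 0.0784 TPM in WT clones at 4.5 g/liter. KRT33B is a type I hair keratin. At 0 g/liter it had 0.998, 2.52 and 0.856 TPM in KO clones and 1.96 and 1.77 TPM in WT clones, and 0.282 TPM was its highest library at 4.5 g/liter. The glucose levels did not overlap for either gene, which the filter also favoured, so nothing is read from it. KRT15, the third one tested, was not called (limma).

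Among the 29 detected below the filter, KRT14, KRT34 and KRT9 were higher at 0 g/liter in all 5 clones and none was lower, 3 of 29 beside 8.96% higher and 1.71% lower among the 10293 symbols of the table detected without passing the filter. KRT14, the basal partner of KRT5, had 0.347, 0.816 and 0.162 TPM in KO clones and 0.973 and 0.880 TPM in WT clones at 0 g/liter, against 0.0273, 0 and 0 TPM in KO clones and 0 and 0.0866 TPM in WT clones at 4.5 g/liter. KRT8P12, a processed pseudogene copy of KRT8, was also higher at 0 g/liter in all 5 clones while KRT8 itself was lower. All keratin pseudogenes together came to 0.368% to 1.29% of keratin TPM including them.

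Keratin-associated proteins, small partners of hair keratins in the hair shaft, were named here after their values were seen. Of 111 such genes 6 passed the filter, and 5 of them (KRTAP2-4, KRTAP3-2, KRTAP3-3, KRTAP4-6 and KRTAP4-12) passed it through their 0 g/liter libraries only. These 5 had to be higher there and are given as values with no test. KRTAP2-3 had 8.04, 45.6 and 13.2 TPM in KO clones and 19.9 and 27.8 TPM in WT clones at 0 g/liter, against 2.90, 4.07 and 5.25 TPM in KO clones and 1.85 and 4.90 TPM in WT clones at 4.5 g/liter. KRTAP3-2 had 0.645, 16.01 and 6.42 TPM in KO clones and 6.70 and 9.60 TPM in WT clones at 0 g/liter, and at 4.5 g/liter it was listed at 0 in 4 of the 5 libraries and at 0.0912 TPM in KO clone 2. KO clone 2 was the highest and KO clone 1 the lowest of the KO clones in each of these at 0 g/liter. KRTAP2-3 passed the filter at both glucose levels, and the test called it higher at 0 g/liter in KO clones (log2 fold change 1.87, adjusted p = 0.0290 from limma) and in WT clones (2.58, 0.0222). Both calls were lost without a filter on low values (0.0756 in KO and 0.0576 in WT clones). The KO call was also lost without any 1 KO library at 4.5 g/liter (up to 0.0745) and the WT call without any 1 WT library (up to 0.149). With clone as a block both held (0.00439 in KO and 0.00341 in WT clones), and the WT call was lost without WT clone 1 (0.0710).

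**Figure D5:**
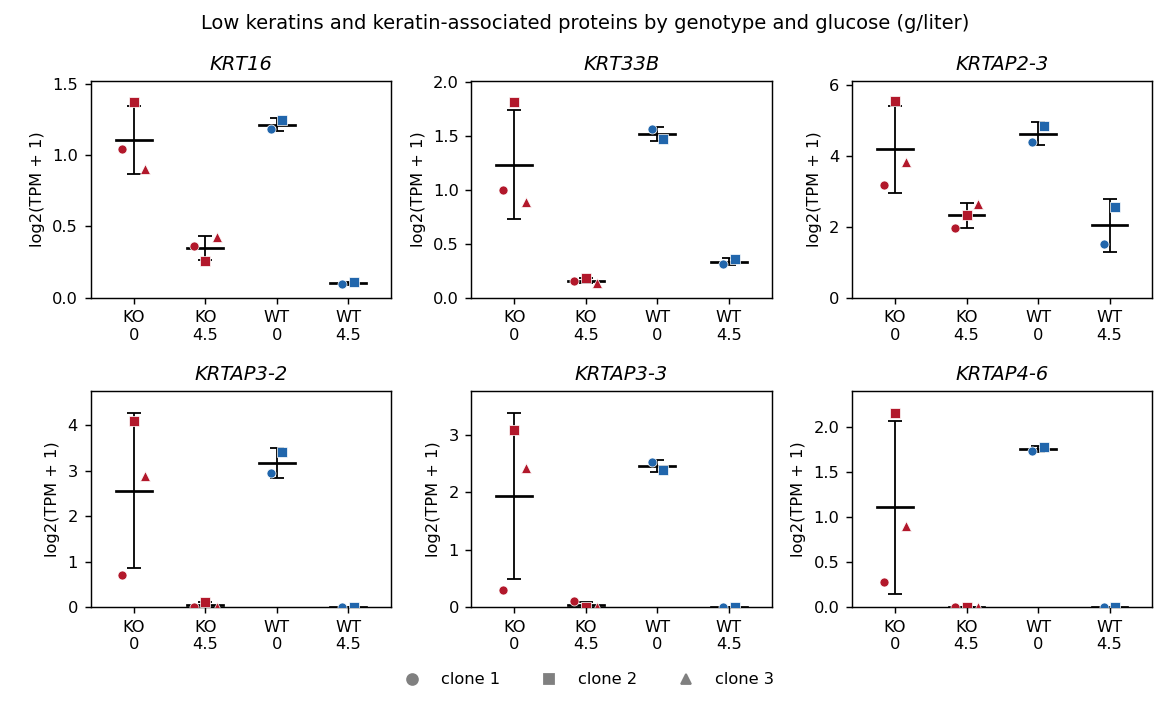
Log2(TPM + 1) of KRT16, KRT33B and 4 keratin-associated protein genes (vertical axis) in KO and WT clones at 0 and 4.5 g/liter glucose (horizontal axis), with group mean and SD and points shaped by clone. Every 0 g/liter library lies above the 4.5 g/liter library of the same clone, and KO clone 1 is low for KRTAP3-2, KRTAP3-3 and KRTAP4-6 at 0 g/liter. All genes drawn but KRTAP2-3 passed the filter through their 0 g/liter libraries only, so the filter favoured that direction for them.

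The 250 bases before the RefSeq start (GRCh38.p14) are shown for KRT8, KRT33B and KRTAP3-2. KRT8 was lower in every clone without glucose. KRT33B and KRTAP3-2 were higher, which the filter favoured, since both passed it through their 0 g/liter libraries only. The RefSeq start of KRT8 lies inside its longer GENCODE span. Of 16 keratin and keratin-associated genes looked for, 9 had a promoter entry, 2 of them members. Capitals mark matches on either strand to TATAAA (a core promoter element bound by TBP), GGGCGG (an Sp1 type GC box), TGAGTCA (an AP-1 element), TGACNNNGC (the shared core of antioxidant response elements, the kind of site BACH1 binds) or TGATGNAA (a CHOP and ATF4 type element); the TGAGTCA and TGACNNNGC motifs may overlap.
KRT8 (chr12:52926470-52926719, minus strand): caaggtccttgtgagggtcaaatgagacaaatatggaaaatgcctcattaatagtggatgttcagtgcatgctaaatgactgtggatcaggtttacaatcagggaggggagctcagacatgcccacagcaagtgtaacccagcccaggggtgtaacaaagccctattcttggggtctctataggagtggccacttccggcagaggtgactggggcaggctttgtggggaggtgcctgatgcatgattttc
KRT33B (chr17:41369814-41370063, minus strand): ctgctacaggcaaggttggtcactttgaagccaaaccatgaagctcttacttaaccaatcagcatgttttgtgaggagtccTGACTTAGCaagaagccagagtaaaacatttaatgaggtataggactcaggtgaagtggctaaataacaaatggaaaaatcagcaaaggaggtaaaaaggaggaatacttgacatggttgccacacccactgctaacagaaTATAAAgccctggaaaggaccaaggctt
KRTAP3-2 (chr17:40999907-41000156, minus strand): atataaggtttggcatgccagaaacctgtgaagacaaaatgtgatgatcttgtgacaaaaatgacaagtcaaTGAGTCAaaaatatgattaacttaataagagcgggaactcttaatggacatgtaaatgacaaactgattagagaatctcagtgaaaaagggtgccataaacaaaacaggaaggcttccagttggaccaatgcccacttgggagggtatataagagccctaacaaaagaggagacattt
This KRT8 window holds none of the 5 motifs. KRT8 has 18 annotated transcripts in GENCODE v44, and the bases before other KRT8 starts were not examined. KRT33B holds TATAAA from base -28 to -23 and TGACNNNGC from -169 to -161, both on its own strand, counted back from the base before the start at -1. KRTAP3-2 holds TGAGTCA from -178 to -172. Of the entries not shown, KRT10, KRTAP2-3, KRTAP2-4, KRTAP4-6 and KRTAP4-12 hold TATAAA, and KRTAP4-6 also holds TGAGTCA. KRTAP3-3 holds none of the motifs, and no entry left out holds TGACNNNGC. Among all 35116 promoters of this length, 10.7% hold TATAAA, 42.6% GGGCGG, 4.20% TGAGTCA, 10.9% TGACNNNGC and 3.14% TGATGNAA, so each match is also found in many other genes.

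The proteins that hold and process keratin filaments were followed as lists, chosen with earlier results of these data known. Their counts stand beside 9.05% of all tested genes called higher and 19.9% lower in KO clones, and 7.47% higher and 15.9% lower in WT clones. Among 15 tested anchors of keratin in desmosomes and hemidesmosomes, 5 fell and 0 rose in KO clones and 2 fell and 0 rose in WT clones, with a median log2 fold change of -0.01 in KO and 0.02 in WT clones. PKP4, a plakophilin-related junction protein, fell to 62.7 ± 7.77 TPM in KO clones at 0 g/liter, against 97.1 ± 5.39 TPM at 4.5 g/liter (limma, adjusted p = 0.00242), and to 61.1 ± 0.128 TPM in WT clones at 0 g/liter, against 101 ± 2.43 TPM at 4.5 g/liter (0.00485). EVPL, envoplakin, fell in both genotypes (log2 fold change -0.68 in KO and -0.76 in WT clones, adjusted p = 0.0128 and 0.0235 from limma), and its calls were lost with median-ratio scaling, as were those of PKP3 and PLEC in KO clones. Among 18 tested keratin-binding and keratin-cleaving proteins 1 rose and 6 fell in KO clones and 1 rose and 5 fell in WT clones, with a median of -0.28 in KO and -0.29 in WT clones. MAPK14, the p38 kinase that phosphorylates KRT8, fell by 0.70 on the log2 scale in each genotype (adjusted p = 0.00117 in KO and 0.00433 in WT clones from limma). CASP6, a caspase that cuts KRT18, was at 18.4 ± 0.757 TPM in KO clones at 0 g/liter, against 31.1 ± 3.57 TPM at 4.5 g/liter (adjusted p = 0.00299 from limma). CASP6 was not called in WT clones.

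Other filaments and the epithelial program gave a mixed picture. Among 8 tested intermediate filament genes other than keratins 0 rose and 2 fell in each genotype. Both were nuclear lamins, LMNB1 (51.8 ± 5.15 TPM at 0 and 117 ± 2.66 TPM at 4.5 g/liter in KO clones, adjusted p = 8.61e-05 from limma) and LMNB2 (112 ± 25.3 and 234 ± 16.4 TPM in the same groups, 0.00167). VIM, the main mesenchymal filament, was not called (log2 fold change 0.02 in KO and -0.06 in WT clones). Of 20 tested epithelial genes 4 (MARVELD3, ESRP1, GRHL1 and ELF3) passed the filter through their 0 g/liter libraries only and are left out of the count. Of the other 16, 3 rose and 0 fell in KO clones and 2 rose and 0 fell in WT clones, beside the shares of all genes given above. CLDN4, a tight junction claudin, rose to 68.9 ± 39.0 TPM in KO clones at 0 g/liter, against 22.9 ± 3.67 TPM at 4.5 g/liter (limma, adjusted p = 0.00834). Of 12 tested mesenchymal genes 2 rose and 1 fell in each genotype, with SNAI1, a repressor of epithelial genes, at 206 ± 85.96 TPM in KO and 233 ± 14.1 TPM in WT clones at 0 g/liter, against 2.93 ± 0.569 TPM in KO and 3.03 ± 0.393 TPM in WT clones at 4.5 g/liter (adjusted p = 8.61e-06 in KO and 3.31e-05 in WT clones from limma).

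The marker lists of other cells are short, and nothing is read from their counts. Of all tested genes 9.05% were called higher and 19.9% lower in KO clones, and 7.47% higher and 15.9% lower in WT clones. Of 6 tested luminal genes, 3 of them outside the members, 1 rose (XBP1) and 0 fell in each genotype. The median log2 fold change of the 6 was -0.32 in KO and -0.10 in WT clones. Of 7 tested basal genes 1 rose (CNN1) and 1 fell (CAV1) in each genotype. Of 3 tested leukocyte genes CD14 passed the filter through its 0 g/liter libraries only, and of the other 2 CD68, which non-leukocytes also express, rose in each genotype. It was at 153 ± 0.206 TPM in WT clones at 0 g/liter, against 89.2 ± 12.8 TPM at 4.5 g/liter. The 4 summed leukocyte markers, CD68 not among them, were at 0.936 to 2.07 TPM in KO clones at 0 g/liter, against 0.517 to 0.731 TPM at 4.5 g/liter, and at 1.96 to 2.29 TPM in WT clones at 0 g/liter, against 0.348 to 0.875 TPM at 4.5 g/liter. Most of this sum was CD14, the gene set aside above. CD14 averaged 1.27 TPM in KO and 1.97 TPM in WT clones at 0 g/liter, against 0.425 and 0.513 TPM at 4.5 g/liter. PTPRC stayed at or below 0.283 TPM and CD3E at or below 0.128 TPM. None of 2 tested fibroblast and 3 tested squamous genes was called (limma). Their part in the keratin values was not tested. Between the genotypes the members carry no test. No other gene of these lists was called there at either glucose level (limma), beside 0.0373% of all tested genes at 0 g/liter and 0.0745% at 4.5 g/liter.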

How the data were processed

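Poly-A RNA from 10 MDA-MB-231 libraries (TruSeq, NovaSeq, single-end reads) was quantified by the authors with kallisto 0.44.0 against GRCh38.p12, per the labels and methods, and 1 table of TPM per gene symbol was deposited. Its annotation release, the strand setting and how transcripts were summed to symbols are not given in the sources used here. The authors' DESeq2 counts were not analysed here. A total of 27 symbols that had turned into dates (0.107% to 0.151% of TPM) were left out. TPM was tested as log2(TPM + 1) with limma 3.58.1 (R 4.3.3; group means of 4 groups, empirical Bayes with trend, two-sided, 6 residual degrees of freedom) over 13418 genes at 1 TPM or more in 2 or more libraries, with Benjamini-Hochberg adjustment and a threshold of 0.05. TPM keeps no depth, so no counting interval is given, and a fold change on this scale understates changes of low genes. The fits were tested on simulated data.

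Clone numbers name the same clone at both glucose levels within a genotype. Deviations of the 2 libraries of a clone from their group means correlated at 0.609, 0.426 and 0.507 in KO clones and 0.0991 in WT clones, and equal numbers in KO and WT name different clones. The members, lists and tests were chosen with earlier results of these data known. Genes were named by rule: the members, other tested keratins, up to 4 called genes with the smallest p per list, direction and contrast, the 5 genes closest to KRT19, BACH1, HMOX1 and VIM. Keratin-associated proteins, KRT14, KRT34, KRT9 and the neighbours of KRT19 were named after their values were seen. Alternatives were other scalings, filters and pseudocounts, a clone block and leaving out libraries. A marker gene of the lists is not reported here.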

Additional observations from a re-analysis of the deposited data

How the results depend on the processing

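Counts of called genes over the whole table moved with the clone block (the replicate block, pairing the 2 glucose levels of a clone), to 6237 genes in KO and 5504 in WT clones for glucose removal, against 3878 in KO and 3138 in WT clones without it, and to 3 for the difference of the responses, against 1. That last count was also 3 with a pseudocount of 0.1 or with the block and median-ratio scaling together, and 6 with no filter. Genes called between KO and WT numbered 4 at 4.5 g/liter with a minimum mean of 5 TPM (10 in the reported fit), and 28 with no filter or 2 with that minimum at 0 g/liter (5 in the reported fit). Median-ratio scaling called 1703 genes higher of 2985 in KO clones and 1364 of 2179 in WT clones, against 1214 higher of 3878 in KO and 1002 of 3138 in WT clones. Leaving out 1 library gave 2467 to 4614 genes for glucose removal in KO clones, 766 to 3994 in WT clones, 0 to 2 for the difference of the responses, and, between KO and WT, 1 to 9 genes without glucose and 2 to 10 genes with 4.5 g/liter. Among the members' tested glucose contrasts, directions reversed in these cases: KRT18 in WT clones was 0.046 with median-ratio scaling, with or without the block, and KRT10 in WT clones 0.093 with that scaling, with or without the block, and 0.080 with quantile normalization, and the KRT18 difference of responses was 0.0031 with quantile normalization. Leaving out 1 library also turned the sign of KRT18 and KRT10 in KO clones (-0.40 to 0.066 and -0.012 to 0.48), both without KO clone 3 at 0 g/liter, and of KRT10 and KRT19 in WT clones (-0.20 to 0.014 and -0.15 to 0.16; for KRT19 -0.091 to 0.10 with 1 clone left out of the blocked fit). The differences of the responses, none of them called, turned sign for KRT18 (-0.25 to 0.21), KRT7 (-0.22 to 0.11), KRT8 (-0.31 to 0.12), KRT80 (-0.054 to 0.19), KRT81 (-0.19 to 0.13) and KRT86 (-0.016 to 0.48); the cause was not tested. Between KO and WT, which was not tested for the members, KRT10 at 4.5 g/liter stood at -0.0093 in the reported fit, at 0.041 after quantile normalization and at 0.027 after median-ratio scaling, and leaving out 1 library turned the sign of KRT10 (-0.099 to 0.13) and KRT7 (-0.15 to 0.14) at 4.5 g/liter and of KRT7 (-0.20 to 0.051), KRT80 (-0.20 to 0.047) and KRT86 (-0.38 to 0.12) at 0 g/liter. Blocking changed no call of the 8 members other than those given beside the results. Depth is unknown, and levels near the filter of 1 TPM are the least certain.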

Other observations

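Pseudogene symbols of the keratin family reached the filter in 2 cases. KRT8P12 on chromosome 3 had 5.67, 8.06 and 7.08 TPM in KO clones and 6.29 and 8.53 TPM in WT clones at 0 g/liter, against 3.14, 5.38 and 5.93 TPM in KO clones and 4.23 and 3.90 TPM in WT clones at 4.5 g/liter. It was not called in the unblocked fit (limma adjusted p = 0.130 in KO and 0.0779 in WT clones) and was called with clone as a block (0.0302 in KO and 0.0151 in WT clones). The blocked KO call was lost without KO clone 1 or 2 (up to 0.109) and the blocked WT call without either WT clone (up to 0.235). KRT87P, an unprocessed hair keratin pseudogene inside the KRT86 span, had 0.496 to 1.45 TPM at 0 g/liter and 0.398 to 0.839 TPM at 4.5 g/liter and was not called. Adding pseudogene TPM to KRT8 and KRT18 left the ratio of KRT8 to KRT18 within the SD of each group except WT clones at 0 g/liter, where it was 0.892 with pseudogenes and 0.864 without. The ratio of VIM to summed keratin TPM was 1.38 ± 0.356 in KO and 1.24 ± 0.101 in WT clones at 0 g/liter, and 1.25 ± 0.213 in KO and 1.18 ± 0.00848 in WT clones at 4.5 g/liter (SD, n = 3 KO and 2 WT clones). This ratio was higher at 0 g/liter in 4 of 5 clones (exact sign-flip permutation p = 0.125, adjusted 0.125).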
